A study of Mus musculus with 9 samples.

Results

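H19, Meg3, Malat1, Neat1, Gas5, Snhg1, Snhg12 and Kcnq1ot1 are RNAs that do not act through a protein product, and their levels were read in left ventricular tissue from mice studied for the loss of Vdac2, a porin of the outer mitochondrial membrane. The 8 RNAs were taken by name from a table of 52636 genes, of which 16322 were abundant enough to be tested, these 8 among them. The list is a chosen set of well-known noncoding RNAs of the heart and of hosts for small nucleolar RNAs (snoRNAs), and not every noncoding RNA of the table. The libraries were made from total RNA after removal of ribosomal RNA, so RNAs without a poly(A) tail, such as most of mature Malat1, were kept.

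All mice were C57BL6J and 16 weeks old, and the material was cardiac LV. The WT label covers libraries 1 to 5 and the KO label libraries 6 to 9. In the KO, floxed Vdac2 is deleted by Cre under the alpha-MHC promoter, which acts in cardiac myocytes and leaves the gene in the other cells of the ventricle. The WT were littermates that carried the floxed allele or Cre, but not both, and the labels do not say which. Both sexes were used in the study, all libraries labelled WT were run in lane 1 and all labelled KO in lane 2, and Xist and the Y-linked Ddx3y followed the label, so lane and sex cannot be told apart from the label. The labels do not say that the libraries come from separate animals, so the p-values measure only the spread between these libraries.

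Vdac2 itself goes against several labels. Its level was 19.1 to 21.3 CPM (counts relative to the normalised library size) in libraries 1, 5, 7 and 9, and 365 to 421 CPM in libraries 2, 4, 6 and 8. Library 3 was at 58.5 CPM and is shown apart. Libraries 1 and 5 are labelled WT and libraries 6 and 8 are labelled KO, so each Vdac2 level holds 2 libraries of each label. The lowest value above the gap was thus 365 CPM and the highest below it, apart from library 3, was 21.3 CPM. Tests were run only between the deposited labels. The libraries at each Vdac2 level were chosen by a measured value, so they are described library by library, with no mean, no test and no genotype given to them.

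Total counts per library were 27345052 to 32469135 under the WT label and 36477141 to 44673988 under the KO label, and 3 counts, taken as the smallest level a library can show, stood for 0.0693 to 0.114 CPM. Library 3 stood apart from the rest. It held the highest value of the 9 libraries in 37.7% of the tested genes and the lowest in 37.4%, against 3.79% to 12.7% and 3.92% to 14.0% in the other libraries. Its summed cardiomyocyte markers were at 14388 CPM against 52034 to 71699 CPM elsewhere, its summed fibroblast markers at 9634 CPM against 1286 to 2210 CPM, and its summed macrophage markers at 1468 CPM against 260 to 599 CPM. Of the 8 fibroblast markers, 6 were highest in library 3. Dcn was lowest there (454 CPM against 560 to 935 CPM), and Lum lay within the range of the others. Summed endothelial markers were at 599 CPM in library 3 against 1004 to 1387 CPM elsewhere. The 8 ventricular and cardiomyocyte markers (Myh6, Tnnt2, Myl2 and others) were abundant in every library, while the 4 atrial markers summed to 6.79 to 12.8 CPM, with Sln at 0 in 4 libraries. In bulk tissue, fewer cells of a type and less RNA per cell cannot be told apart.

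The 8 RNAs work in different ways. H19, Meg3 and Kcnq1ot1 come from imprinted clusters, in which 1 parental copy is active: H19 and Meg3 are read from the maternal copy, and Kcnq1ot1 from the paternal copy, where it silences neighbouring genes in cis. Malat1 and Neat1 stay in the nucleus, Malat1 in speckles that hold splicing factors and Neat1 as the scaffold of paraspeckles. Gas5, Snhg1 and Snhg12 carry snoRNAs in their introns. Their spliced exons are poorly coding, are bound by ribosomes and are degraded by nonsense-mediated decay, and their transcription starts at a run of pyrimidines (a 5′ terminal oligopyrimidine, or TOP, start), the feature that ribosomal protein genes carry as well.

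The start sites of the 3 snoRNA hosts are shown because a TOP start is a feature that such hosts are known for. The RefSeq promoter table (GRCm38.p6) held entries for 6 of the 8 members, and H19 and Neat1 had none. Each window below is 100 bases long on the plus strand, 5′ to 3′, with the 50 bases before the RNA's first base and the 50 from it onward. Capitals mark the unbroken run of C and T that includes that first base.
Gas5, chr1:161035116-161035215: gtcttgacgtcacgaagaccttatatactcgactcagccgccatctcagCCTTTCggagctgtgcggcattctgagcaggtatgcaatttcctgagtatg
Snhg1, chr19:8723437-8723536: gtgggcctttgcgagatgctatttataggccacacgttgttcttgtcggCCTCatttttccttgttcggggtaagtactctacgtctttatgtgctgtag
Snhg12, chr4:132308628-132308727: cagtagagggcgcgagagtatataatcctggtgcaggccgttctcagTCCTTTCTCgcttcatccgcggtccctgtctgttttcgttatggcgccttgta
The run is 6 bases long in Gas5, 4 in Snhg1 and 9 in Snhg12. A run at least as long covers the first base in 7.25%, 14.0% and 3.03% of the 32851 promoter entries of the table, in the same order. In all 3 windows the run begins before the RNA's first base, so its length includes bases outside the annotated RNA. Gas5 has a second RefSeq start at position 161034601, whose first base is not a pyrimidine. A match of letters is a description and not a test of how these RNAs are controlled.

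H19 and Meg3 also enclose microRNA genes, and the mature forms of those listed in the RefSeq table are given here with the seed (bases 2 to 8) in capitals, because their host transcripts are what the counts measure. The miR-675 hairpin lies in an H19 exon on the minus strand of chromosome 7, and miR-770 lies in Meg3 on the plus strand of chromosome 12.
miR-675-5p: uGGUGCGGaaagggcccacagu
miR-675-3p: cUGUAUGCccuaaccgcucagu
miR-770-5p: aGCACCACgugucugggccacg
miR-770-3p: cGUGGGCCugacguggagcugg
These 4 seeds all differ. The genes Mir675 and Mir770 were at 0 counts in all 9 libraries.

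Those zeros follow a pattern that bears on every host RNA. Of the annotated genes that lie wholly within an exon of a member on the same strand, 31 of 31 had no count in any library. Of the 8 that lie within an exon on the opposite strand, 6 had counts, of at most 19. Gm37376, which lies opposite to Malat1, had 3 to 12 counts beside 326642 to 524786 for Malat1 itself. Reads were thus assigned by strand, and the enclosed genes of the same strand received none. Whether such reads were counted for the host or left out is not given. The 23 snoRNA genes within Gas5 (10), Snhg1 (8) and Snhg12 (5) all fall within an annotated exon of the host and all 23 were at 0. Over all genes, 319 of the 1507 annotated snoRNA genes had a count, of up to 2956. These zeros therefore say nothing of the snoRNA levels, and ratios of snoRNA to host could not be computed for the 3 hosts.

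Per length the 8 RNAs differed widely in level. Malat1 had a median of 1787 CPM per kb of exon over the 9 libraries (range 1382 to 1993), and made up 0.920% to 1.36% of all counts. Neat1 followed at 36.9 CPM per kb (29.7 to 47.3), then Gas5 at 10.9 (9.09 to 20.4) and H19 at 9.44 (7.44 to 16.6). Snhg1 had 3.36 CPM per kb (2.33 to 7.45), Snhg12 had 1.79 (1.35 to 2.02), Kcnq1ot1 had 1.09 (0.808 to 1.38) and Meg3 had 0.212 (0.182 to 0.504). Malat1 and Neat1 were separated from each other and from all others in every library. Gas5 was above H19 in 6 of 9 libraries, so these neighbours do not differ beyond their spread. Every other neighbour in this order kept its place in all 9 libraries, although the ranges of H19 and Snhg1 and those of Snhg12 and Kcnq1ot1 overlapped between libraries. The low value of Kcnq1ot1 per kb depends on its annotated length of 93.1 kb in a single exon. For Snhg1 and Snhg12 the exonic length is the whole span of the gene, and for Gas5 most of it. The introns that hold the snoRNAs are thus counted as exon there, and the values per kb and places of these 3 hosts depend on that annotation.

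**Figure D1:**
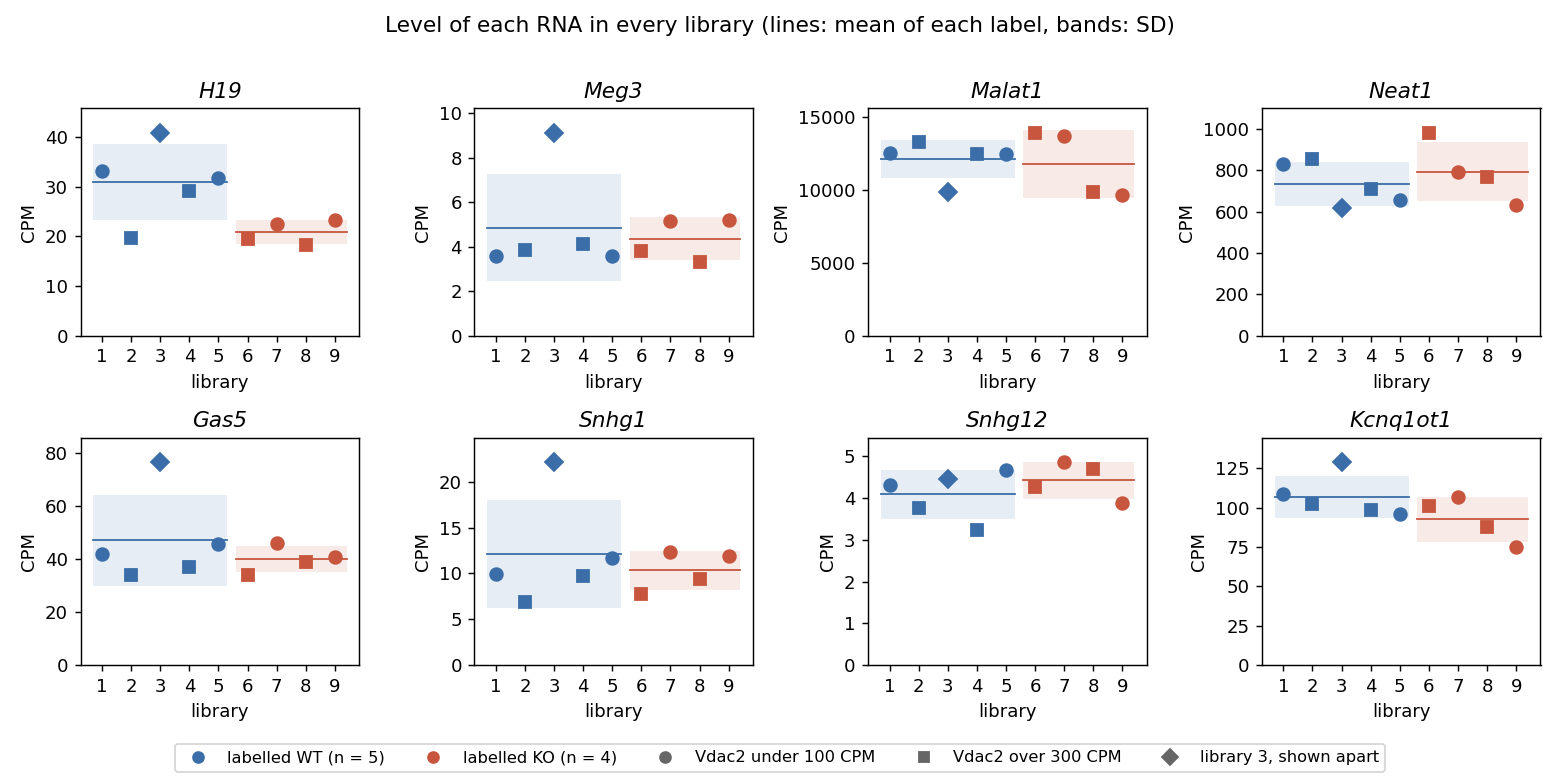
Level of each RNA in CPM (vertical axes, starting at 0) in libraries 1 to 9 (horizontal axes), with blue for labelled WT and red for labelled KO, lines for the mean of each label, bands for its SD, and marker shapes for the Vdac2 level. Library 3 (diamond) is the highest of 9 for H19, Meg3, Gas5, Snhg1 and Kcnq1ot1 and the lowest for Neat1, and the labels overlap in every panel.

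Between the labels, no member passed the test. With edgeR's quasi-likelihood F-test, adjusted by the Benjamini-Hochberg method across all 16322 tested genes, 0 of the 8 had an adjusted p under 0.05 (lowest 0.68). Of all tested genes 0.0551% did, 0.0123% being higher and 0.0429% lower under the KO label. DESeq2 also called 0. At an unadjusted p under 0.05 there was 1 member, H19, by either tool, beside 6.11% of all tested genes by edgeR and 1536 of 32807 by DESeq2. The 32807 include genes too low for edgeR's filter, and DESeq2 on the 16322 genes tested with edgeR had 1331. Over all the settings tried, the adjusted p-values of the members ran from 0.29 to 0.999. The estimate was lower under the KO label for 6 members and higher for 2, with a median log2 fold change of -0.18 beside -0.018 over all tested genes. Without library 3 this turned, with 5 of 8 higher and a median of 0.029 beside 0.0030 over all tested genes. For 0 of the 8 did the labelled groups separate without overlap, beside 2.30% of all tested genes that separated upward and 2.06% downward.

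H19, abundant in the fetal heart and low after birth, lies on the minus strand at chr7:142575529-142578143 (GRCm38) and is annotated as a long intergenic RNA. Its levels were 33.1, 19.7, 40.8, 29.1 and 31.7 CPM in libraries 1 to 5, and 19.4, 22.5, 18.3 and 23.2 CPM in libraries 6 to 9. Of the libraries labelled WT, 4 lay above all of those labelled KO and library 2 lay among them. The mean under the WT label was 30.9 ± 7.63 CPM (SD, n = 5), and that under the KO label was 20.9 ± 2.39 CPM (SD, n = 4). On the log2 scale the estimate for KO against WT was -0.57 with a standard error (SE) of 0.19, at an unadjusted p of 0.0144 and an adjusted p of 0.68 by edgeR. Without library 3 the log2 fold change was -0.45 (SE 0.15, edgeR adjusted p = 0.29). H19 was thus the member with the largest estimate between labels, and it did not pass the adjusted threshold. Without library 3, the summed fibroblast markers (1552 to 2110 CPM under the WT label, 1286 to 2210 CPM under the KO label) and macrophage markers (381 to 599 and 260 to 469 CPM) overlapped between the labels. All 7 macrophage markers had a lower estimate under the KO label, as H19 did, with a median log2 fold change of -0.87 (-0.40 without library 3). Of these, 0 had an adjusted p under 0.05 by edgeR or DESeq2, and 3 by edgeR and 6 by DESeq2 had an unadjusted p under 0.05. Over all genes, 6.11% did by edgeR and 1536 of 32807 by DESeq2, or 1331 of 16322 when DESeq2 was given the genes tested with edgeR. All 5 erythroid markers were lower in estimate as well (median -0.61, and -0.66 without library 3). So were all 7 endothelial markers without library 3 (median -0.21), 3 at an unadjusted p under 0.05 by edgeR, beside 11.8% of all tested genes. All 8 cardiomyocyte markers had a higher estimate (median 0.43), and 7 did without library 3 (median 0.17, Tnnt2 at an unadjusted p under 0.05 by edgeR). Of the 8 fibroblast markers, 1 was higher (median -0.74), and 6 were higher without library 3 (median 0.064). There Pdgfra and Dcn, both lower under the KO label, and Lum, higher under it, had an unadjusted p under 0.05 by edgeR. The part of these cell types in the level of H19 was not tested.

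Meg3, the maternally read RNA of the Dlk1-Dio3 cluster, lies on the plus strand at chr12:109541001-109571726. Libraries 1 to 5 had 3.58, 3.84, 9.12, 4.11 and 3.57 CPM, and libraries 6 to 9 had 3.82, 5.14, 3.30 and 5.19 CPM. Library 3 was 2.38-fold above the median of the other libraries, the largest such ratio among the 8 members, and libraries 7 and 9 were the next highest. Meg3 had a log2 fold change between labels of -0.15 (SE 0.32, edgeR adjusted p = 0.87) with library 3 and 0.21 (SE 0.16, edgeR adjusted p = 0.65) without it, so its direction was set by that library.

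Kcnq1ot1 is annotated as an antisense RNA on the minus strand at chr7:143203458-143296549, within the span of Kcnq1 and 625.3 kb from H19. It had 109, 102, 129, 98.3 and 95.7 CPM in libraries 1 to 5, and 101, 106, 87.4 and 75.2 CPM in libraries 6 to 9. Libraries 8 and 9 were the lowest, library 3 the highest, and the other libraries of the labels overlapped. Its log2 fold change was -0.21 (SE 0.13, edgeR adjusted p = 0.68), and -0.14 without library 3.

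Malat1 lies on the minus strand at chr19:5795690-5802672. Libraries 1 to 5 had 12537, 13268, 9861, 12426 and 12482 CPM, and libraries 6 to 9 had 13917, 13694, 9876 and 9649 CPM. Libraries 3, 8 and 9 formed a low set at 9649 to 9876 CPM and the other 6 lay at 12426 to 13917 CPM. This split crosses both the labels and the Vdac2 levels. Malat1 had a log2 fold change between labels of -0.04 (SE 0.22, edgeR adjusted p = 0.95), which turned to 0.037 without library 8 and to 0.045 without library 9, and was -0.11 without library 3.

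Neat1 lies 22.0 kb from Malat1 on the same strand, at chr19:5824708-5845478. Its levels were 830, 856, 616, 709 and 654 CPM in libraries 1 to 5, and 982, 789, 767 and 633 CPM in libraries 6 to 9. Library 6 was the highest, library 3 the lowest, and the other libraries were interleaved. Its log2 fold change was 0.11 (SE 0.17, edgeR adjusted p = 0.82), 0.050 without library 3 and -0.0058 without library 6.

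Gas5, the host of box C/D snoRNAs that was named for its build-up in growth-arrested cells, lies on the plus strand at chr1:161034422-161038539. It had 41.8, 34.2, 76.7, 36.9 and 45.9 CPM in libraries 1 to 5, and 34.2, 46.2, 39.0 and 41.0 CPM in libraries 6 to 9. Library 3 was 1.92-fold above the median of the others. Between labels the log2 fold change was -0.23 (SE 0.23, edgeR adjusted p = 0.73). Without library 3 it was 0.0071 (SE 0.11, edgeR adjusted p = 0.98).

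Snhg1 lies on the plus strand at chr19:8723475-8726443. It had 9.98, 6.91, 22.1, 9.70 and 11.7 CPM in libraries 1 to 5, and 7.74, 12.3, 9.36 and 11.9 CPM in libraries 6 to 9. Library 3 was 2.25-fold above the median of the others, and library 2 was the lowest. Snhg1 had a log2 fold change of -0.23 (SE 0.32, edgeR adjusted p = 0.79) and turned to 0.10 (SE 0.18, edgeR adjusted p = 0.86) without library 3.

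Snhg12 lies on the plus strand at chr4:132308623-132311024 and had only 85 to 184 counts per library. Its levels were 4.30, 3.77, 4.45, 3.23 and 4.67 CPM in libraries 1 to 5, and 4.27, 4.85, 4.68 and 3.88 CPM in libraries 6 to 9. Unlike in the other hosts, library 3 lay within the range of the rest, at 1.04 times their median. The log2 fold change was 0.11 (SE 0.15, edgeR adjusted p = 0.79).

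**Figure D2:**
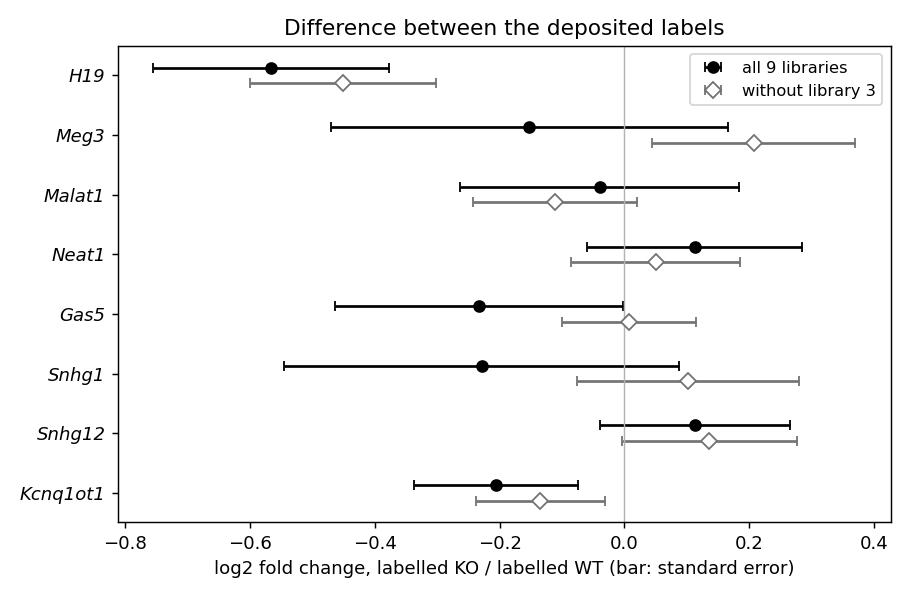
Log2 fold change of labelled KO against labelled WT for the 8 RNAs (horizontal axis, with bars for 1 SE), from all 9 libraries and without library 3. The estimate of H19 stays at -0.57 and -0.45, while those of Meg3 and Snhg1 change sign, from -0.15 to 0.21 and from -0.23 to 0.10, and that of Gas5 goes from -0.23 to 0.0071.

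Beside the Vdac2 level, Gas5 and Snhg1 were the members whose libraries did not overlap. Gas5 was at 41.0 to 46.2 CPM in libraries 1, 5, 7 and 9, where Vdac2 was under 100 CPM, and at 34.2 to 39.0 CPM in libraries 2, 4, 6 and 8, where it was over 300 CPM. Snhg1 was at 9.98 to 12.3 CPM and at 6.91 to 9.70 CPM in the same libraries with little room between the nearest of them. Both were higher where Vdac2 was low. Of all tested genes, 7.16% were higher in every low library than in every high one and 4.93% were lower. The 2 members of 8 stand beside that background, with no member lower. Scaling by size factors, by plain totals or without mitochondrial genes left both without overlap, with 6.73%, 11.3% and 6.83% of all genes higher in the same way.

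The summed markers of 3 cell types also did not overlap between these libraries. The fibroblast markers summed to 2107 to 2210 CPM where Vdac2 was low and to 1286 to 1661 CPM where it was high, with 4 of 8 (Col1a2, Col3a1, Postn and Tcf21) higher without overlap and 0 lower. The macrophage markers summed to 449 to 599 CPM and 260 to 401 CPM, with 4 of 7 (Cd68, Adgre1, Ptprc and Lyz2) higher. The cardiomyocyte markers summed to 52034 to 59788 CPM and 61777 to 71699 CPM, with 1 of 8 (Myl3) lower. The other marker sums overlapped: endothelial markers were at 1004 to 1273 CPM where Vdac2 was low and 1186 to 1387 CPM where it was high, smooth muscle and pericyte markers at 1226 to 1453 and 1223 to 1440 CPM, and erythroid markers at 694 to 1369 and 590 to 2056 CPM. Among these and the atrial markers, Pecam1 (1 of 7 endothelial) and Kcnj8 (1 of 7 smooth muscle and pericyte) were lower without overlap, Myl4 (1 of 3 tested atrial) was higher, and 0 of 5 erythroid markers did either. These counts of markers stand beside 7.16% of all tested genes that were higher without overlap and 4.93% that were lower. No fibroblast or macrophage marker was at 0 in any library. Their part in the levels of Gas5 and Snhg1 was not tested.

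The other members overlapped between the Vdac2 levels. Meg3 was at 3.57 to 5.19 CPM where Vdac2 was low and at 3.30 to 4.11 CPM where it was high, its upper values there being libraries 7 and 9. H19 was at 22.5 to 33.1 and 18.3 to 29.1 CPM, and Snhg12 at 3.88 to 4.85 and 3.23 to 4.68 CPM. Neat1 was at 633 to 830 and 709 to 982 CPM, Malat1 at 9649 to 13694 and 9876 to 13917 CPM, and Kcnq1ot1 at 75.2 to 109 and 87.4 to 102 CPM. For Malat1 and Kcnq1ot1 the low libraries spanned nearly the whole range of the high ones. Library 3, with Vdac2 at 58.5 CPM, was above all of these values for H19, Meg3, Gas5, Snhg1 and Kcnq1ot1 and below all of them for Neat1. It was thus the highest for 5 members and the lowest for 1, beside 37.7% and 37.4% of all tested genes.

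**Figure D3:**
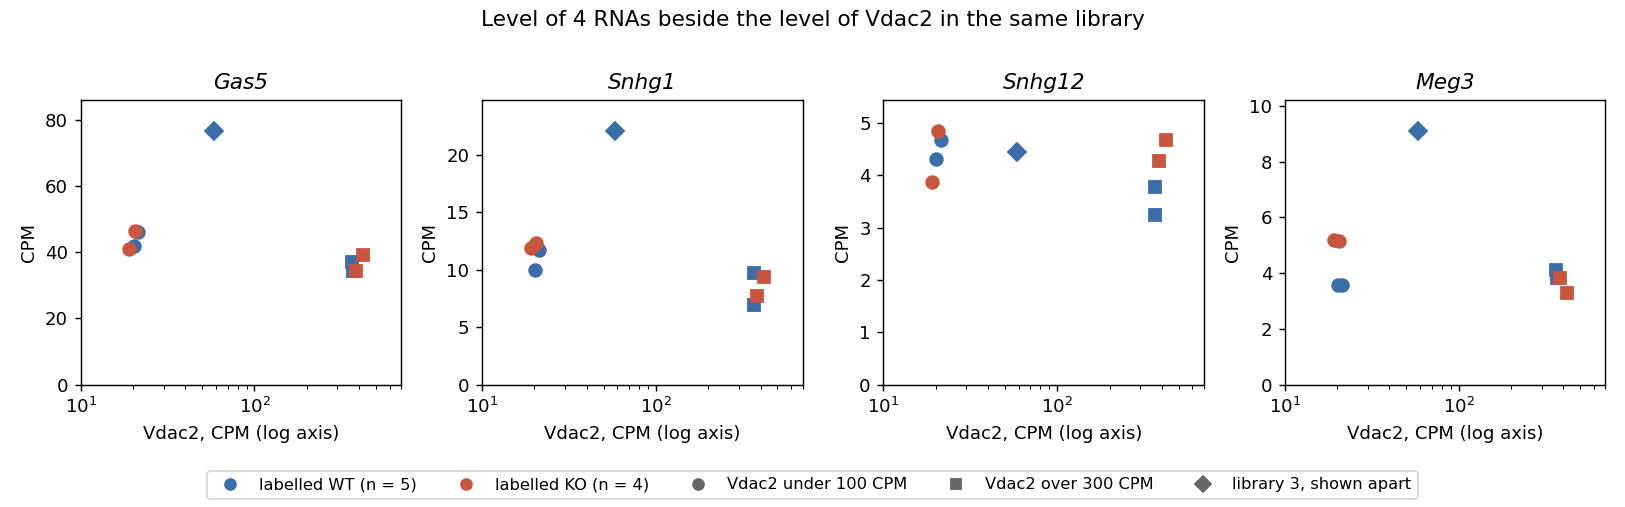
Levels of Gas5, Snhg1, Snhg12 and Meg3 in CPM (vertical axes, starting at 0) against the Vdac2 level in CPM (horizontal axes, log scale), 1 point per library coloured by label. Gas5 (41.0 to 46.2 against 34.2 to 39.0 CPM) and Snhg1 (9.98 to 12.3 against 6.91 to 9.70 CPM) separate the libraries at the 2 ends, and library 3 at 58.5 CPM stands above both.

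Ratios within a library need no scaling between libraries, and 2 could be formed. Neat1 per 100 counts of its neighbour Malat1 was 6.62, 6.45, 6.25, 5.70 and 5.24 in libraries 1 to 5, and 7.05, 5.76, 7.76 and 6.56 in libraries 6 to 9. The labels overlapped, although both libraries above 7 are labelled KO. The mean log2 ratio differed by 0.16 between KO and WT (exact two-sided permutation test, p = 0.175, also 0.175 after adjustment over the 2 ratios). Because Malat1 and Neat1 were both low in library 3, their ratio of 6.25 there lay among the others.

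Kcnq1ot1 was also set against Kcnq1, the potassium channel gene in whose span it lies on the other strand. There were 326, 283, 616, 282 and 226 counts of Kcnq1ot1 per 100 of Kcnq1 in libraries 1 to 5, and 233, 254, 223 and 175 in libraries 6 to 9. The labels overlapped, with library 5 among those labelled KO. The mean log2 ratio was lower by 0.57 under the KO label (1.13 ± 0.23 against 1.70 ± 0.55, SD). The exact two-sided permutation test gave p = 0.0476, and 0.0952 after adjustment over the 2 ratios, where 0.00794 is the smallest p this design allows. Without library 3 the difference was -0.34 (exact permutation test, adjusted p = 0.171).

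**Figure D4:**
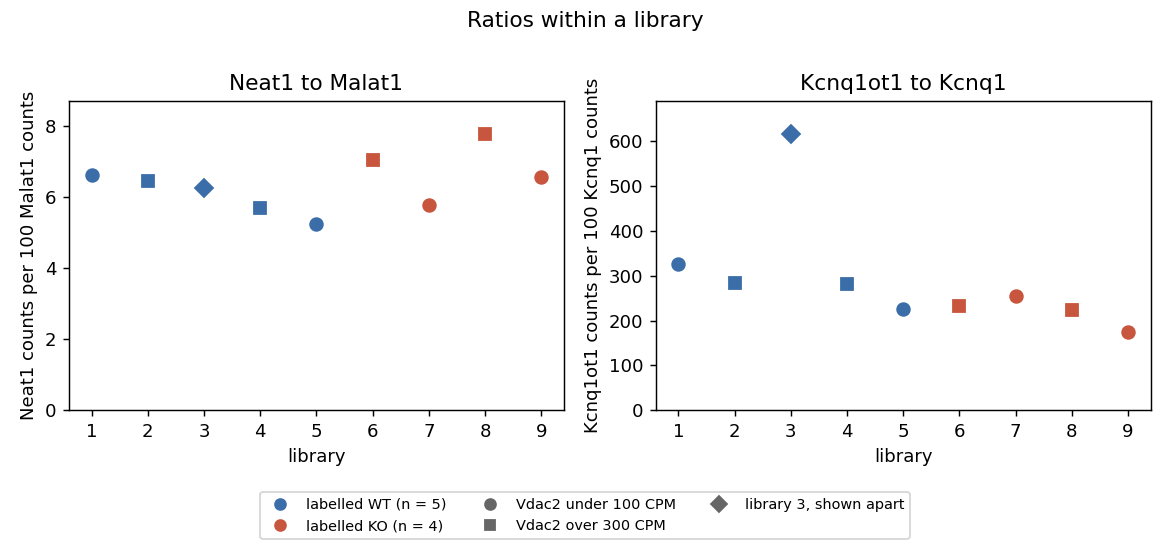
Counts of Neat1 per 100 of Malat1 and of Kcnq1ot1 per 100 of Kcnq1 (vertical axes, starting at 0) in libraries 1 to 9, coloured by label. Neat1 stays between 5.24 and 7.76 per 100 in all libraries, and Kcnq1ot1 reaches 616 per 100 in library 3 against 175 to 326 in the others.

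The neighbours and partners of the 8 RNAs did not pass the test between labels either. In every list below 0 genes had an adjusted p under 0.05, by edgeR's quasi-likelihood test and by DESeq2, and the same held for edgeR without library 3, where 11.8% of all tested genes had an unadjusted p under 0.05. Of the chromosome 7 imprinted genes around H19 and Kcnq1ot1, 6 of 11 were tested, 4 with a higher estimate under the KO label, and 0 had an unadjusted p under 0.05 by either tool (median log2 fold change 0.07). Without library 3, 3 were higher with a median of 0.020, and 3 had an unadjusted p under 0.05 by edgeR, namely Kcnq1, Cdkn1c and Nap1l4. Igf2, the growth factor that shares its enhancers with H19, had a log2 fold change of 0.05 (SE 0.22, edgeR adjusted p = 0.93), or -0.077 without library 3, and stood at 5.50 CPM in library 3 and at 7.04 to 11.8 CPM in the others. Cdkn1c, a cell cycle inhibitor silenced in cis by Kcnq1ot1, had -0.07 (SE 0.48, edgeR adjusted p = 0.96), and -0.36 (SE 0.11, edgeR adjusted p = 0.23) without library 3. Its level in library 3 was 2.32 CPM against 13.2 to 20.7 CPM elsewhere. Kcnq1 had 0.32 (SE 0.17, edgeR adjusted p = 0.68), and 0.19 (SE 0.080, edgeR adjusted p = 0.40) without library 3, with 20.9 CPM in library 3 and 33.3 to 43.5 CPM elsewhere. Tssc4, another gene of the cluster, had -0.40 (SE 0.29), or -0.035 without library 3, and was at 21.6 CPM in library 3 against 8.07 to 9.56 CPM in the others. Library 3 was the lowest of 9 for 4 of the 6 genes and the highest for 1, beside 37.4% and 37.7% of all tested genes.

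The chromosome 12 cluster gave 2 tested genes of 5, both noncoding RNAs read from the same strand as Meg3, with 0 at an unadjusted p under 0.05 by either tool. Rian had 13.5, 10.8, 50.1, 12.4 and 14.2 CPM in libraries 1 to 5, and 11.7, 13.4, 8.91 and 18.9 CPM in libraries 6 to 9. Library 3 was again the highest and library 9 the second, as for Meg3. Mirg ran from 0.853 CPM in library 8 to 4.37 CPM in library 3, and library 8 was also the lowest for Meg3 and Rian. Log2 fold changes between labels were -0.61 for Rian (SE 0.48, edgeR adjusted p = 0.70) and -0.59 for Mirg (SE 0.41, edgeR adjusted p = 0.68), and without library 3 they stood at 0.053 and -0.18. Rian was also higher in each low-Vdac2 library than in each high one, as were 7.16% of all tested genes. Dlk1, the paternally read protein-coding gene of the cluster, had too few counts to be tested.

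Of 13 other imprinted genes, 12 were tested, 0 had an unadjusted p under 0.05 by either tool, and the median log2 fold change was -0.021, or 0.059 without library 3. Peg10 had the largest estimate, -1.23 (SE 0.80, edgeR adjusted p = 0.68), with 9.12 CPM in library 3 against 0.785 to 1.53 CPM in the others, and 0.18 without library 3. Ndn, a growth suppressor, had -0.45, or -0.037 without library 3, where it was at 16.9 CPM. Ndn was higher in each low-Vdac2 library than in each high one (6.62 to 7.41 CPM against 4.88 to 5.92 CPM). It was 1 of the 12 to do so, beside 7.16% of all tested genes, and 2 were lower without overlap, beside 4.93%: Snrpn (14.0 to 20.2 CPM against 20.7 to 25.9 CPM) and Zim1 (1.48 to 2.47 CPM against 2.63 to 4.34 CPM).

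The proteins that share pathways with these RNAs follow. All 12 paraspeckle proteins were tested, 2 with a higher estimate under the KO label, with a median log2 fold change of -0.08. Without library 3, 6 were higher and the median was -0.0024. At an unadjusted p under 0.05 there were 0 by edgeR and 1 by DESeq2. Nono, Sfpq and Pspc1, which bind Neat1 in the paraspeckle, had -0.0034 (SE 0.15), -0.17 (SE 0.12) and -0.12 (SE 0.074). Without library 3 these were 0.15, -0.084 and -0.11. Nudt21, a cleavage factor for 3′ ends, had 0.24 (SE 0.11).

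Among the other snoRNA hosts, 16 of 19 symbols were found and 14 tested, 6 with a higher estimate under the KO label, with a median of -0.13 and 0 at an unadjusted p under 0.05 by either tool. The 14 include Mir17hg, by its name a microRNA host, with a log2 fold change of 0.12. Without Mir17hg the list was not summarised. Without library 3 the tally of the 14 turned to 9 higher and a median of 0.060. Library 3 was the highest for 8 of the 14 and the lowest for 3, beside 37.7% and 37.4% of all tested genes. Snhg5, also a TOP host, had 5.74, 4.75, 18.0, 6.70 and 8.42 CPM in libraries 1 to 5 and 5.54 to 7.70 CPM in libraries 6 to 9, with a log2 fold change of -0.46 (SE 0.37), or -0.022 without library 3. Snhg18 had -0.42 (SE 0.50), or 0.28 without library 3, from 16.4 CPM in library 3 and 3.16 to 6.26 CPM elsewhere. Snhg14, the host of the imprinted Snord115 and Snord116 arrays, was lower in each low-Vdac2 library (8.34 to 10.8 CPM) than in each high one (11.6 to 13.8 CPM), and was at 3.29 CPM in library 3. It was 1 of 14 tested hosts to do so, beside 4.93% of all tested genes. Of these hosts, 0 separated upward as Gas5 and Snhg1 did.

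All 8 snoRNP proteins were tested, 0 with a higher estimate under the KO label and 0 at an unadjusted p under 0.05 by either tool (median -0.20). Without library 3, 2 were higher and the median was -0.018. Library 3 was the highest for 7 of them, beside 37.7% of all tested genes. Nhp2, a core protein of the box H/ACA particles, had 32.6 CPM there against 9.36 to 12.1 CPM in the others (-0.51, SE 0.38, and -0.0052 without library 3), and fibrillarin (Fbl), the methyltransferase of the box C/D particles, had -0.40 (SE 0.23). The 8 nonsense-mediated decay factors had a median of -0.03, 4 higher and 4 lower (-0.072 and 3 higher without library 3), with 0 at an unadjusted p under 0.05 by edgeR, 1 by DESeq2 and 2 by edgeR without library 3. Upf2, a core factor of the pathway, had -0.16 (SE 0.075).

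Of 15 other long noncoding RNAs studied in the heart, 10 were found and 9 tested, with 1 at an unadjusted p under 0.05 by either tool and a median of -0.08, or 0.021 without library 3. Pvt1, the neighbour of Myc, had 4.10, 1.90, 8.33, 2.24 and 3.08 CPM in libraries 1 to 5 and 1.83, 3.06, 1.97 and 2.45 CPM in libraries 6 to 9 (-0.76, SE 0.43, and -0.29 without library 3). With Rmrp and Rpph1, the RNA parts of RNase MRP and RNase P, it was 1 of 3 of the 9 that were higher in each low-Vdac2 library than in each high one, beside 7.16% of all tested genes. Rmrp was at 1489 to 1834 CPM where Vdac2 was low and at 1268 to 1432 CPM where it was high. Carmn, a smooth muscle and cardiac RNA, had 0.63 (SE 0.34), or 0.40 without library 3, and was at 3.34 CPM in library 3 against 10.4 to 16.9 CPM in the others.

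The RNAs read as signs of library quality had a median log2 fold change of 0.04 over 8, 4 of them higher under the KO label and 0 at an unadjusted p under 0.05 by either tool. Actb was at 2208 CPM in library 3 and at 372 to 491 CPM in the others (-0.99, SE 0.56), while mt-Co1 had 0.23 (SE 0.37). Without library 3 these were -0.10 and 0.020, the median of the 8 was -0.046, and mt-Nd1 and mt-Cytb had an unadjusted p under 0.05 by edgeR. Mitochondrial genes gave 9.07% of the counts in library 3 and 16.8% to 19.2% in the other 8. The part of library quality and of cell types in the levels of the 8 RNAs in library 3 was not tested.

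The genes most like each RNA over the libraries differed from member to member. Likeness was the Pearson correlation of log2 CPM over the 9 libraries, given as a description because the highest of 16322 values is always large and all genes share the libraries. Gas5 was most like Spag5 (r = 0.992) and Ppp1r3e (0.990), and Snhg1 most like Pde3b (0.980) and Cept1 (0.979). H19 was most like P2ry13 (0.973) and Lyz1 (0.951), and Meg3 most like Eef1akmt2 (0.977) and Elp6 (0.976). Malat1 was most like C530043K16Rik (0.974) and Foxo6os (0.967), Neat1 most like Trpv3 (0.952) and Tctn3 (0.944), Kcnq1ot1 most like Parvb (0.990) and Hipk2 (0.989), and Snhg12 most like Zfp503 (0.898) and Gm44509 (0.879). Over the 8 libraries without library 3, Spag5 remained among the leading pair for Gas5 (0.992), Hipk2 for Kcnq1ot1 (0.992) and Zfp503 for Snhg12 (0.915). For the other 5 members both names changed, among them to Adamts20 (0.993) for H19, Zfp78 (0.967) and Casp6 (0.923) for Meg3, A430110C17Rik (0.982) and Sf1 (0.977) for Malat1, C4bp-ps1 (0.959) for Neat1, and Anln (0.992) and Gpsm2 (0.973) for Snhg1.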

How the data were processed

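Total RNA was extracted with a miRNeasy kit, depleted of ribosomal RNA and sequenced as stranded libraries with 50-base single-end reads. The authors deposited raw counts of reads per Ensembl gene on GRCm38, without normalization. The submitters' processing notes name STAR 2.7.2c, featureCounts 1.6.3 and DESeq2. Not given in the sources used here are the Ensembl release, whether strand was set in counting, and how multiply aligned reads were treated. The paper used n = 4 and removed 1 WT sample for RNA quality without naming it in its text, so all 9 libraries were kept.

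Counts were compared between the deposited labels with edgeR 4.0.16 in R 4.3.3 (filterByExpr, TMM normalization, robust quasi-likelihood F-test, Benjamini-Hochberg adjustment over 16322 genes). The SE is the absolute log2 fold change over the square root of F. CPM are counts relative to the TMM-scaled library size. Ratios used counts plus 0.5 and an exact permutation test over 9 libraries, computed with scipy 1.17.1. Of 5 ratios planned, 2 could be computed. Symbols matched 52403 identifiers, and coordinates and exon lengths are from a GENCODE annotation of GRCm38. Meg3, Snhg1 and Snhg12 had the fewest counts of the members, so counting error is largest for them relative to their level. The SE between labels did not simply follow depth, at 0.15 for Snhg12 and 0.22 for Malat1. Count floors cover counting error only.

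Named are the 8 members, the small RNAs they enclose, their listed neighbours and partners, in each list that is not of cell markers the 2 tested genes with the largest absolute log2 fold change, and the 2 genes most like each member. Genes named for not overlapping between Vdac2 levels, Nap1l4, mt-Nd1, mt-Cytb, and Rmrp and Snhg14 with their values, were chosen after their values were seen. Some genes that this rule names are not reported here. The members and lists were chosen with earlier results of these data known. Alternatives were leaving out each library in turn, leaving out mitochondrial genes, DESeq2 1.42.0, edgeR with upper-quartile or RLE scaling, and edgeR unfiltered or with a minimum of 10 counts in all libraries. The script was tested on simulated data.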

Additional observations from a re-analysis of the deposited data

Results flagged for a closer look

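In 4 of 20 groups tested for a single library far from the others of its label, the gap exceeded the critical value, where chance gives about 1 in 20. Library 3 was that library in all 4, under the WT label: it was the highest for Meg3 at 9.12 CPM and for Gas5 at 76.7 CPM, the lowest for Malat1 at 9861 CPM, and the highest for Kcnq1ot1 per 100 counts of Kcnq1 at 616. No library labelled KO stood apart in this way for any member or ratio. The groups share the same libraries and so are not independent, which the rate of 1 in 20 does not allow for. Library 3 was also the highest in 37.7% and the lowest in 37.4% of all tested genes. The share of all genes that this rule would flag is not given here. The summed markers and the mitochondrial share of library 3 stand beside these values in the report, and their part was not tested.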

How the results depend on the processing

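The members with an adjusted p under 0.05 numbered 0 in every setting tried, and H19 alone had an unadjusted p under 0.05 in each. Leaving out 1 library at a time gave log2 fold changes from -0.69 to -0.45 for H19, 0.04 to 0.17 for Snhg12 and -0.28 to -0.12 for Kcnq1ot1. Directions turned for Meg3 (-0.25 to 0.21), Gas5 (-0.33 to 0.0071) and Snhg1 (-0.37 to 0.10) without library 3, for Malat1 (-0.13 to 0.045, with 0.037 without library 8) without library 8 or 9, and for Neat1 (-0.0058 to 0.21) without library 6. Such ranges were taken for only part of the other named genes. There were none for the cell markers, the genes named for likeness, Nap1l4, Snrpn, Zim1, Snhg14, Rmrp, Rpph1, mt-Nd1 or mt-Cytb. Among those with a range, directions turned for Igf2 (-0.12 to 0.15), Cdkn1c (-0.36 to 0.055), Rian (-0.83 to 0.053), Peg10 (-1.46 to 0.18), Snhg18 (-0.57 to 0.28) and Nono (-0.054 to 0.15). Nono also turned to 0.015 with upper-quartile normalization and to 0.025 with no low-count filter. The ratio of Kcnq1ot1 to Kcnq1 differed by -0.70 to -0.34. The count of all genes past the threshold, 9, became 63 with DESeq2 (which was given all 32807 genes with a count), 70 with DESeq2 on the 16322 genes tested with edgeR (an alternative chosen after seeing the data), 0 with at least 10 counts in every library (875 at an unadjusted p under 0.05), and 5 to 62 with a library left out, 62 being without library 3. The cause was not tested. No paired analysis was possible because the labels give the WT and KO libraries no shared replicate numbers. Snhg12 had 85 to 184 counts per library and Meg3 105 to 338, and their differences between labels were smaller than 1 SE with all 9 libraries.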
